A study of Mus musculus with 12 samples.

Results

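The results describe the ac4C peak regions whose centres lay in a 3′ untranslated region (3′ UTR), in mouse peritoneal macrophages given interferon-γ (IFN-γ). N4-acetylcytidine (ac4C) is an acetylated form of the RNA base cytidine, and RNA that carried it was pulled down and sequenced (RIP-seq). A region was taken when at least 1 of its deposited annotations placed its centre in a 3′ UTR, and it was counted once per list. These regions came to 2347 of the 4753 regions summed over 6 deposited lists. Regions of different lists that shared at least 1 base were merged, which left 1364 of 2808 merged regions, over 1181 genes. The pull-down samples had IFN-γ for 0, 24 or 48 h, 2 samples at each time, and each was paired by time with a total RNA group of 2 samples. Total RNA was not analysed here. All cells were cultured peritoneal macrophages, and the labels give no strain, sex, age or genotype of the mice. There was no group without IFN-γ at 24 h or 48 h, so IFN-γ and the time elapsed cannot be told apart. A list carries its time but no sample name, so "list 1" and "list 2" are used for the pair at each time and carry no order. Whether the pair came from separate animals or cultures is not stated in the labels, so p-values measure only how far these lists lie apart, which may be technical.

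The 3′ UTR is the stretch of an mRNA after its stop codon. It holds the sites at which RNA-binding proteins and microRNAs act on how long the mRNA lasts, where in the cell it lies and how much protein it yields. In mammals ac4C is written by the acetyltransferase NAT10, and in mRNA it has been discussed mostly for coding sequence, where it has been linked to stability and translation. IFN-γ acts through its receptor and JAK kinases and drives macrophages towards an antimicrobial, antigen-presenting state. A peak marks a place where the pull-down was enriched over the background of the peak caller. It is not a level of the mRNA, and a region missing from a list may lie just under the caller's threshold.

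Regions centred in 3′ UTRs numbered 639 and 476 in the 0 h lists. The 24 h lists held 313 and 244, and the 48 h lists 312 and 363. Both 0 h lists therefore held more of them than any of the 4 later lists. Of all regions of a list they made up 55.5% and 50.3% before IFN-γ, 43.2% and 37.8% after 24 h, then 46.3% and 59.4% after 48 h. The share was lowest in both 24 h lists, while the 48 h lists lay apart from each other and covered the 0 h values. Last exons and other exons followed; last exons held more regions than other exons in both 0 h lists and 48 h list 2, and fewer in the other 3.

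**Figure D1:**
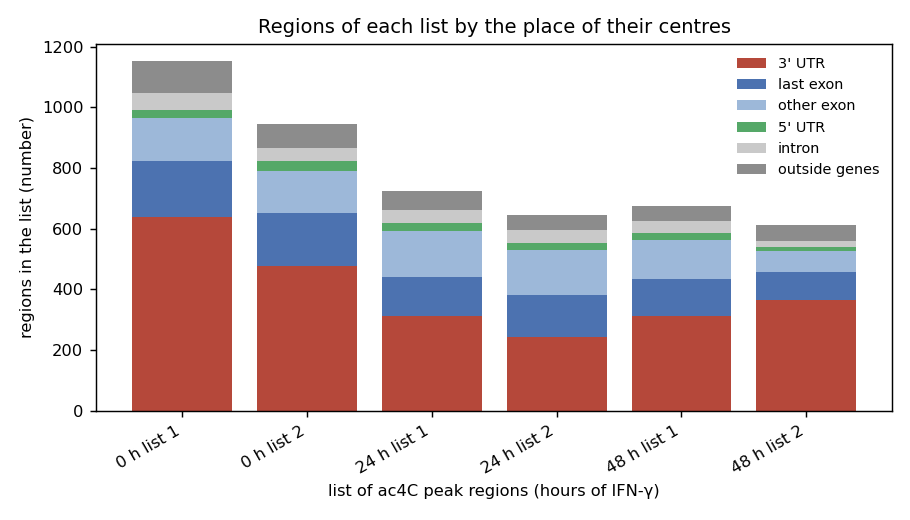
Stacked bars give the number of regions of each of the 6 lists by the annotated place of their centres, with 3′ UTR regions at the bottom. The 3′ UTR part is tallest in the 0 h lists (639 and 476 regions) and lowest in 24 h list 2 (244 regions).

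The 0 h lists held a mean of 557.5 ± 115 such regions, the 24 h lists 278.5 ± 48.8 and the 48 h lists 337.5 ± 36.1 (each SD, n = 2 lists). Relative to 0 h these are log2 ratios of -1.0 (24 h) and -0.72 (48 h). The 4 later lists against the 2 lists of 0 h gave the smallest p this design allows (two-sided exact permutation, p = 0.067). After Benjamini-Hochberg adjustment over the 25 tests of time this was 0.417, so no change with time passed the threshold of 0.05. None could have passed, since even the smallest p these tests can give stays above 0.05 after that adjustment. The adjusted values therefore do not decide whether the regions changed with time. The number of genes with such a region followed the same order, with 578 and 445 in the 0 h lists, 295 and 227 in those of 24 h, then 297 and 346 in those of 48 h. They covered 190 ± 36.8 kb before IFN-γ, 93.4 ± 18.4 kb after 24 h and 103 ± 17.7 kb after 48 h (mean ± SD of 2 lists). The share of the list differed from 0 h by -12.4 points at 24 h and by -0.07 points at 48 h (exact permutation, p = 0.333 and p = 1, n = 2 against 2).

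Depth differed between times as well. The input coverage, recovered from the deposited fold and p of each summit, stood relative to the deepest list at 100% and 91.4% (0 h), 73.7% and 80.8% (24 h), then 57.2% and 44.6% (48 h). The pull-down coverage was deepest in the 24 h lists, at 100% and 97.9%, against 91.5% and 78.1% in the 0 h lists and 77.9% and 68.6% in the 48 h lists. With all lists brought to the same input coverage, the log2 ratio of 3′ UTR regions to 0 h was -0.96 at 24 h and -0.39 at 48 h. When each list was limited to its 611 regions of smallest p, the ratio was -0.37 at 24 h and -0.01 at 48 h. With stricter q limits the ratios lay further from 0 than with all regions: a limit of 0.05 gave -1.41 at 24 h and -1.10 at 48 h, and a limit of 1e-05 gave -1.66 and -1.45. How much of the difference between times comes from depth was not tested beyond these settings.

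Regions centred in 3′ UTRs were longer than those in last exons and in other exons within every list. Their median length was 292 and 291.5 bases in the 0 h lists, 282 and 288.5 in those of 24 h, then 254 and 270 in those of 48 h. Regions centred in a last exon had medians of 271, 273.5, 271.5, 263.5, 242 and 262 bases in the same order of lists, and those in other exons lay between 208 and 229 bases. All 6 lists gave the same order of the 3 places. The mean within-list difference was 15.8 ± 6.63 bases to last-exon regions and 59.2 ± 8.26 bases to other-exon regions (SD, n = 6 lists). Both passed the exact sign-flip test over lists (p = 0.031, the smallest it can give; 0.043 adjusted over 15 such comparisons). The median of other-exon regions equals the shortest region of its list in all 6 lists, so that difference is measured from the lowest length a list holds. At a q of 0.05 or less the differences were 9.75 and 25.5 bases, which no longer passed (adjusted exact p = 0.134 and p = 0.156).

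In strength, 3′ UTR regions lay between the last exon and the other exons. Their median −log10 p, averaged over the lists, was 5.22, against 6.50 for last-exon regions and 4.15 for other-exon regions. The mean within-list difference was -1.28 ± 0.439 from last-exon regions and 1.07 ± 0.298 from other-exon regions, each the same way in 6 of 6 lists (SD, n = 6; exact sign-flip, adjusted p = 0.043). A q of 0.05 or less was reached by 43.0% of the 3′ UTR regions on average, by 56.6% of the last-exon regions and by 26.4% of the other-exon regions (adjusted exact p = 0.043 for both differences, each the same way in 6 of 6 lists). The median fold enrichment ran the other way against all regions of other places, at 2.99 against 3.16, and was the lower in 6 of 6 lists (adjusted exact p = 0.043). At a q of 0.05 or less this call ended (adjusted exact p = 0.281), and at 1e-05 or less the difference turned to 0.031 (exact p = 1). The difference in fold from last-exon regions alone did not pass (adjusted exact p = 0.108), nor did that from other-exon regions (-0.17, adjusted exact p = 0.078). The latter was -1.09 with a q limit of 0.05 and -1.40 with one of 1e-05 (adjusted exact p = 0.094 and p = 0.078). Before adjustment both had the smallest p the test can give, and neither passed after adjustment over 15 comparisons. Those of the share at a q of 0.05 are fixed at a difference of 0 under such limits but stayed among the 15. A 3′ UTR region held 1.13 summits on average, against 1.18 in last exons and 1.01 in other exons.

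**Figure D2:**
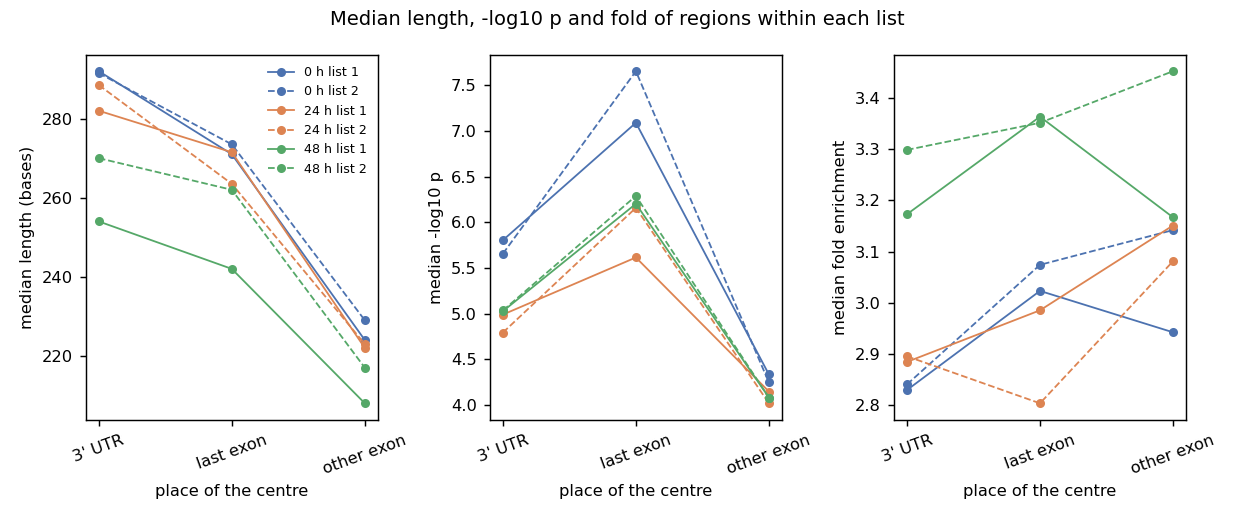
Points give the median length in bases, the median −log10 p and the median fold enrichment of regions centred in 3′ UTRs, last exons and other exons, with 1 line per list. Only the slope within a line is compared: length falls from 3′ UTR to other exons in all 6 lists, and −log10 p is highest for last exons in all 6.

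Median lengths were lowest in the 48 h lists, and so was the shortest region of the list. The exact Jonckheere-Terpstra trend of the median length over 0, 24 and 48 h gave p = 0.022, the smallest it can give, and 0.417 after adjustment. The shortest region had 224 and 229 bases (0 h), 222 and 223 (24 h), then 208 and 217 (48 h), and 9.37% to 11.9% of the 3′ UTR regions of a list had exactly that length. Measured from the shortest region of the list, the medians were 68, 62.5, 60, 65.5, 46 and 53 bases in list order (exact trend p = 0.067). This second measure was added after the data were seen. Regions of over 500 bases made up 11.0% and 11.3% of the 3′ UTR regions before IFN-γ, 11.8% and 9.84% after 24 h, then 3.21% and 8.82% after 48 h.

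Most regions lay wholly inside the 3′ UTR. Both ends were annotated there for 83.7% to 94.3% of the region and gene pairs of a list. In 3.77% to 9.35% at least 1 end was annotated as exon, last exons included, and not as 3′ UTR. In 24 h list 2, the list with the fewest 3′ UTR regions, these values were 83.7% and 9.35%. Of the merged regions, 26 lay over 2 genes, and the deposited tables cannot say which strand gave the reads. Of the 1181 genes, 1166 were protein-coding by a RefSeq table, 5 were of other types and 10 were not matched.

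Recurrence was low for 3′ UTR regions and for the rest alike. Of the merged 3′ UTR regions, 836 (61.3%) were in 1 list, against 63.2% of all merged regions, and 29 (2.13%) were in every list, against 1.96% of all. Within a time, 26.1% of the merged 3′ UTR regions were in both lists at 0 h, 16.1% at 24 h and 17.8% at 48 h. For regions elsewhere the shares were 24.1%, 16.2% and 14.3%. The mean difference was 1.81 points over the 3 times (exact sign-flip, p = 0.5, where 0.25 is the smallest possible). Regions in last exons recurred in 29.4%, 21.3% and 16.3% (difference -2.32 points, exact p = 0.5).

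**Figure D3:**
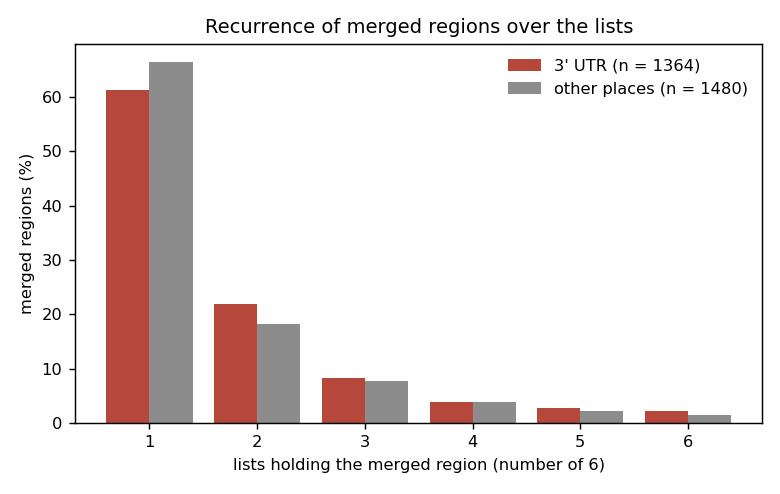
Bars give the percentage of merged regions that were held by 1 to 6 lists, for the 1364 regions centred in 3′ UTRs and for those elsewhere. In both, most regions were in 1 list (61.3% and 66.5%), and 2.13% and 1.49% were in all 6.

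Lists of one time were not always the closest to each other. Of the 3′ UTR regions of 24 h list 1, 24.4% were also in 24 h list 2, 43.1% in 0 h list 1 and 37.6% in 48 h list 2. Of those of 48 h list 1, 33.0% were in 48 h list 2, more than in 0 h list 2 (30.1%) or the 24 h lists (30.4% and 24.3%) but fewer than in 0 h list 1 (42.1%). The lists of 0 h met 48.3% of list 2 and 36.1% of list 1. A longer list meets more regions of any other, so these shares also follow list length.

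Of the 29 regions held by all 6 lists, the 10 with the highest −log10 p percentile, averaged over the lists, were in Arf3, Rab7, Cfl1, Ifrd1, Gsk3b, Actb, Arf5, Myh9, Cat and Ywhae. Arf3, Arf5 and Rab7 encode small GTPases of vesicle traffic. Cfl1 (cofilin, which severs actin filaments), Actb (β-actin) and Myh9 (non-muscle myosin heavy chain) belong to the actin cytoskeleton.

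The Arf3 region (GRCm39, chr15:98635977-98636703, 3′ UTR) ranked first, with a mean percentile of 97.5. Its fold enrichment was 4.96, 4.58, 4.65, 3.66, 4.39 and 3.67 in list order from 0 h list 1 to 48 h list 2. The Rab7 region (chr6:87976218-87977434) had folds of 2.93, 3.16, 2.90, 2.61, 2.48 and 3.42 in list order. Arf3 stood at or above the 93.9 percentile of every list by p, and Rab7 at or above the 92.0 percentile.

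Cfl1 (chr19:5543685-5544046) had folds of 1.93, 1.90, 2.42, 2.32, 2.13 and 3.26. Actb (chr5:142888928-142889541) had the lowest folds of the 10, from 1.3 to 1.95, with a −log10 q of 92.5 in 0 h list 2 and 2.39 in 24 h list 2. Both regions combined a small enrichment with a very small p in most lists. Ifrd1, which encodes an interferon-related developmental regulator, had folds of 4.14, 4.72, 4.25, 4.11, 5.70 and 8.04 (chr12:40253140-40253451). It was the one region of all 3′ UTR regions that every list held at a fold of 4 or more.

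Gsk3b, a serine/threonine kinase of glycogen and Wnt signalling, had folds of 6.06, 5.38, 3.74, 4.18, 3.79 and 4.73 (chr16:38063098-38064055). Cat (catalase, which breaks down hydrogen peroxide) had folds of 4.93, 4.76, 2.57, 2.19, 3.00 and 3.56 (chr2:103284433-103285077). Its −log10 q was 47.4 and 44.1 at 0 h and 2.27 to 6.67 in the later lists. This was not particular to Cat. Both 0 h values also lay above all later ones for Arf3, Rab7, Gsk3b, Actb, Arf5 and Ywhae. For Cfl1 and Myh9 they overlapped, and for Ifrd1 both lay below (12.3 and 19.2, against 21.1 to 31.1). These are values of single lists, which differ in depth, and no test between lists was made on them. Ywhae, an adaptor protein of the 14-3-3 family, had folds of 2.19 to 3.88, Arf5 of 3.13 to 5.91 and Myh9 of 1.85 to 4.78.

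Of the 229 merged 3′ UTR regions held by both 0 h lists, 80 (34.9%) were in none of the 4 later lists, a sustained loss. Among merged regions of all places the share was 33.0%, so 3′ UTR regions were near that background. At matched input coverage 50 of 177 were lost, and at equal list length 37 of 150 (28.2% and 24.7%). Regions of all places gave 27.6% and 24.4% there. Of the 80 regions, 49 and 36 still met the rule at those settings, and the rest were no longer in both 0 h lists. In 15 of the 80 cases the gene kept another 3′ UTR region in a later list, and in 22 it kept a peak of any place. In the other 58 cases the gene or gene pair had no peak in the gene body after 0 h; some genes had more than 1 of these regions.

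**Figure D4:**
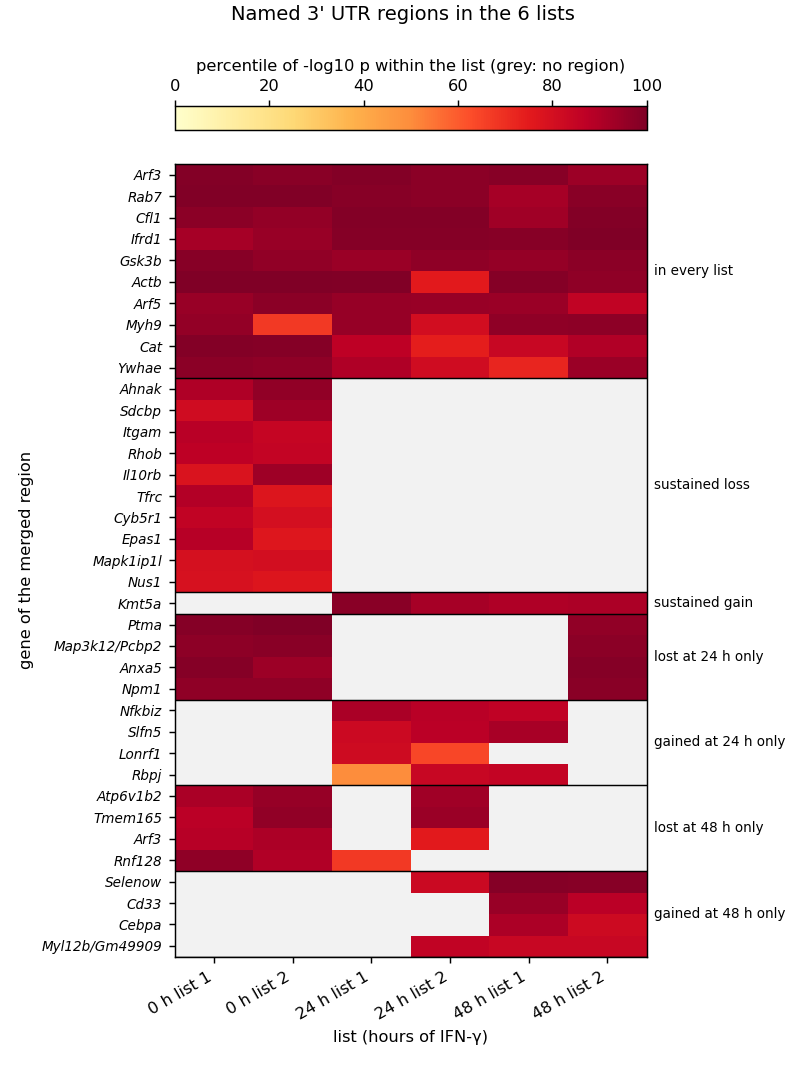
Rows are the named 3′ UTR regions, grouped by pattern, and columns are the 6 lists; colour gives the percentile of −log10 p within the list and grey marks a list without the region. Regions of the first block are coloured in all 6 columns, sustained losses in the 0 h columns only, and Kmt5a in the later columns only.

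The strongest sustained losses by p were in Ahnak, Sdcbp, Itgam, Rhob, Il10rb, Tfrc, Cyb5r1, Epas1, Mapk1ip1l and Nus1. Itgam encodes the αM integrin CD11b, which macrophages carry on their surface. Its region (chr7:127716623-127717066) had folds of 2.60 and 2.58 at 0 h, and a second, weaker region in 0 h list 1 had a fold of 2.39. No 3′ UTR region of Itgam was in a later list.

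Tfrc encodes the transferrin receptor, whose 3′ UTR is known for iron-responsive elements. Its region (chr16:32449399-32449735) had folds of 3.06 and 2.65. Il10rb, a subunit shared by receptors of the IL-10 family, had 2.67 and 4.13 (chr16:91222454-91222710). Epas1, which encodes the hypoxia-inducible factor HIF-2α, had 3.66 and 3.01 (chr17:87138979-87139316). These are 2 receptors and a transcription factor whose 3′ UTR peaks both 0 h lists held and no later list did.

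Ahnak, a very large scaffold protein, had folds of 2.42 and 3.73 (chr19:8995838-8996481), and a peak elsewhere in the gene in a later list. Rhob, a small GTPase of endosomes and actin, had 3.14 and 3.17 (chr12:8548714-8548965), and Cyb5r1, a cytochrome b5 reductase, had 5.95 and 4.97 (chr1:134338901-134339432). Mapk1ip1l had 3.32 and 3.47. At a q of 1e-05 or less, at matched input coverage and at equal list length, all 10 regions stayed in both 0 h lists. With a minimum fold of 4, only the Cyb5r1 region did. Such settings only remove regions, so absence from the later lists could not fail there and was not put to a test. The Itgam region was not counted when every annotation of a region had to be in the 3′ UTR.

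In 2 of the 10 genes the loss touched 1 stretch of the 3′ UTR and not its neighbour. Sdcbp encodes syntenin, an adaptor of exosome formation. Its lost region (chr4:6394601-6394937) had folds of 1.54 and 1.93, while the next region of the same 3′ UTR (chr4:6394992-6395565) was in all 6 lists at 1.37 to 1.79. Nus1, a subunit of the enzyme that makes dolichol precursors, lost a region with folds of 2.49 and 2.51 (chr10:52313522-52313917). Its neighbour at chr10:52312765-52313118 stayed in 5 lists at 2.37 to 4.59.

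The reverse pattern was almost empty, but its rule is harder to meet. A gain needs presence in 4 lists, where a loss needs it in 2. It also needs absence from the 0 h lists, which held the most 3′ UTR regions. The counts of sustained losses and gains therefore cannot be set against each other. Of the 35 merged 3′ UTR regions held by all 4 later lists, 1 was in neither 0 h list, against 9.46% of the regions of all places that could show this (7 of 74). That region lay in Kmt5a, which encodes the methyltransferase of histone H4 lysine 20 (ENSMUSG00000049327, chr5:124598866-124599156). Its folds were 4.15 and 2.87 at 24 h and 3.29 and 4.52 at 48 h, with a −log10 q of 7.32 to 17.1. A second region of the same 3′ UTR (chr5:124599442-124599677) was in 24 h list 1 at 2.31 and 48 h list 1 at 2.76, and also in neither 0 h list. The first Kmt5a region stayed in all 4 later lists at matched input coverage and at equal list length. It also did at a q of 1e-05 or less, but not at a fold of 4 or more. Its absence at 0 h could not fail at these settings, which only remove regions. The count rests on few regions: without 24 h list 2 it was 11.

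At 24 h alone, 118 of 229 regions of both 0 h lists were in neither list (51.5%; 48.3% of regions of all places), and 15 of 76 regions of both 24 h lists were new (19.7%; 22.2% of all). At 48 h the counts were 101 of 229 lost (44.1%; 45.5% of all) and 28 of 102 gained (27.5%; 28.7% of all). From 24 h to 48 h, 18 of 76 regions were lost (23.7%; 29.9% of all) and 27 of 102 gained (26.5%; 27.7% of all). The share lost from 24 h to 48 h lay furthest from that of regions of all places, and the others lay near theirs. Regions of all places include those in 3′ UTRs, so the shares compared are not independent.

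Among regions missing from both 24 h lists but not from both 48 h lists, the strongest were in Ptma, Npm1, Anxa5 and over Pcbp2 and Map3k12. Ptma (prothymosin α) and Npm1 (nucleophosmin) are abundant acidic chromatin and nucleolar proteins. The Ptma region (chr1:86458127-86458390) had folds of 2.95 and 5.57 at 0 h and 4.10 in 48 h list 2, and that of Npm1 (chr11:33102555-33102801) 3.23, 3.68 and 4.95. Anxa5, the phosphatidylserine-binding annexin A5, had 3.02, 2.22 and 4.67 (chr3:36503088-36503416). All 4 regions were in both 0 h lists and in 48 h list 2, and in no other list. The region over Pcbp2, a poly(C)-binding protein, and Map3k12 (chr15:102406996-102407311; folds 3.09, 4.20 and 3.13) cannot be given to one of these genes.

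Regions of both 24 h lists and no 0 h list included Nfkbiz, Slfn5, Lonrf1 and Rbpj. Nfkbiz encodes IκBζ, an inducible regulator of NF-κB target genes. Its region (chr16:55632407-55633007) had folds of 4.45 and 3.74 at 24 h and 3.90 in 48 h list 1. Slfn5 belongs to the interferon-induced Schlafen family, and its region (chr11:82855371-82855651) had 3.62 and 3.92 at 24 h and 5.71 in 48 h list 1. Rbpj, the DNA-binding partner of Notch, had 1.81, 2.56 and 2.89 in the same 3 lists (chr5:53812168-53812407). Lonrf1, a RING finger protein, had 5.99 and 4.29 (chr8:36684124-36684366) and was in no 48 h list. The Rbpj region did not keep the pattern at a q of 0.05 or less.

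At 48 h the regions of Atp6v1b2, Tmem165, Rnf128 and a second region of Arf3 were in neither list, after being in both 0 h lists and 1 list of 24 h. Atp6v1b2 encodes a subunit of the vacuolar proton pump, with folds of 1.91 and 2.35 at 0 h and 2.43 in 24 h list 2 (chr8:69565985-69566302). Tmem165, a Golgi membrane protein, had 2.97, 5.75 and 6.33 (chr5:76356471-76356977). Rnf128, the E3 ubiquitin ligase GRAIL, had 3.14 and 2.52 at 0 h and 3.07 in 24 h list 1 (chrX:138573021-138573822).

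Regions of both 48 h lists and no 0 h list included Selenow, Cd33, Cebpa and the region over Myl12b and Gm49909. Cd33, a sialic acid-binding inhibitory receptor of myeloid cells, had folds of 4.73 and 4.05 (chr7:43176495-43176809). Cebpa, a transcription factor of myeloid differentiation, had 4.20 and 4.00 (chr7:34820928-34821168). Both regions were in the 48 h lists and in no other. A second region of Cebpa (chr7:34819925-34820221) was in 0 h list 2 at 2.46 and 48 h list 2 at 2.04, so the gene had a 3′ UTR peak in 1 of the lists without IFN-γ. Cd33 had a second region in the same 48 h lists at 3.35 and 3.23. Selenow, a small selenoprotein, had 2.92 in 24 h list 2 and 5.05 and 6.19 at 48 h (chr7:15651186-15651465). The region over Myl12b and Gm49909 had 2.82, 2.88 and 3.57 in the same lists (chr17:71281035-71281367).

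Between 24 h and 48 h the strongest losses were in Cd53, Fam214b and Lonrf1, and in a gene the tables give without a symbol (ENSMUSG00000115423). Cd53, a tetraspanin of leukocytes, was in all 4 lists of 0 h and 24 h at folds of 1.92, 1.99, 2.81 and 1.64 (chr3:106667335-106668051), and in no 48 h list. At a q of 0.05 or less neither Cd53 nor ENSMUSG00000115423, with a −log10 q of 0.385 and 0.838, was in both 24 h lists. Fam214b had 4.47, 2.90, 6.76 and 4.61 in the same 4 lists (chr4:43032713-43033063). The strongest gains were again in Cd33 and Cebpa, with Ptp4a1 and Cd36. Cd36, a scavenger receptor for oxidised lipids, had 1.75 in 0 h list 1, then 2.59 and 3.21 at 48 h (chr5:17987448-17987685), and Ptp4a1, a membrane-bound phosphatase, had 4.42, 4.71 and 4.10 in those lists (chr1:30985203-30985446). For both genes the 0 h lists disagreed.

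Long 3′ UTRs were covered in several ways. The longest merged region, of 2223 bases, was in Lrrc58 (chr16:37704966-37707189), and all 6 lists held part of it. It was 1 unbroken region in 48 h list 2 alone; the other lists held 2 or 3 separate regions there, of 260 to 669 bases, and the strongest region of each list had a fold of 2.56 to 3.17. Camk2d, a calcium-dependent kinase, followed with 1590 bases in 4 lists, then Zbtb18 with 1241 in 2 lists, Rab7 with 1216 in 6 and Soat1, which esterifies cholesterol, with 1127 in 5. A merged region can join separate regions of a list where another list bridges them, so these are spans and not lengths of single regions.

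Of the 1181 genes, 168 had more than 1 separate 3′ UTR region: 132 had 2, 32 had 3, 2 had 4 and 2 had 5. The 210 neighbouring pairs lay a median of 464.5 bases apart. Genes with many regions differed in how the lists shared them. Arf3 had 4 regions within chr15:98635537-98638045, of which 1 was in all 6 lists and the others in 2 or 3. Gsk3b had 3, held by 6, 5 and 1 list.

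In contrast, each of the 5 regions of Bach1, a repressor of haem oxygenase, was in 1 list, spread over 0 h list 2, both 24 h lists and 48 h list 1, at folds of 2.82 to 3.95. The 4 regions of Cflar, which encodes the caspase-8 inhibitor c-FLIP, were also in 1 list each, and all in the 24 h lists at folds of 1.77 to 3.18. Counted by gene, Cflar was thus in both 24 h lists and no other, although none of its regions was shared. The 5 regions of Lnpep, an aminopeptidase of endosomes, were all in at least 1 list of 0 h, and 1 of them (chr17:17744149-17745193) was also in 24 h list 1 and 48 h list 1.

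By gene, 235 genes had a 3′ UTR region in both lists at 0 h, 82 at 24 h and 112 at 48 h. In 661 genes it was in 1 list and in 30 in all 6. Of the 2071 genes with a peak centre anywhere in the gene body, 57.0% had a 3′ UTR region, and the gene lists below are read against that share. Annotation terms were deposited for 1180 of the 1181 genes with a 3′ UTR region, and for 641 of those with peaks elsewhere alone. The 2071 thus include genes without terms, nearly all of them without a 3′ UTR region. For lists of well-known genes 57.0% may be too low, and shares a little above it say little. The lists were chosen with earlier results of these data known, and no test was made on them.

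In several lists of regulatory and trafficking genes, most genes with any peak had at least 1 in the 3′ UTR. Of 21 small GTPases and regulators with any peak, 19 had a 3′ UTR region, as did 19 of 22 signalling kinases and phosphatases, 17 of 20 genes of 3′ end processing, AU-rich element binding and RNA decay, 16 of 19 actin and tubulin genes and 20 of 24 chromatin regulators. Besides the Arf and Rab regions above, Rab8b had a 3′ UTR region in 6 lists, and Rab1a, Rap2b and Arf4 in 5. The branched actin regulators Actr2 and Actr3 were in all 6 lists. In both lists of a time there were 9 small GTPases at 0 h, 6 at 24 h and 8 at 48 h. All genes together gave 235, 82 and 112.

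Among kinases, Pim1 was in all 6 lists at folds of 2.23 to 2.75 (chr17:29714181-29715003). The decay group held Btg1 in 5 lists, Btg2 and Cnot6l in 3, and Zfp36 and Zfp36l1, which bind AU-rich elements, in 2 each. Of the chromatin regulators, H3f3b, a gene of histone H3.3, was in 5 lists.

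SR and hnRNP splicing factors had 22 of 31 genes with a 3′ UTR region. There were 9 of them in both lists at 0 h, 1 at 24 h and 3 at 48 h, beside 235, 82 and 112 of all genes. Hnrnpk was in all 6 lists at folds of 2.12 to 3.55 (chr13:58539241-58540151), and Srsf6 in 5. Hnrnpm was in 4 lists with folds of 5.80 and 6.09 at 0 h, 8.89 in 24 h list 2 and 5.69 in 48 h list 2 (chr17:33865256-33865634). Near-identical copies exist for several of these genes, and the sources used here do not give how the authors placed such reads.

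Macrophage surface receptors and identity factors had 13 of 16 genes with a 3′ UTR region. Of these, 8 were in both lists at 0 h, 3 at 24 h and 4 at 48 h. Over all genes the counts also fell, from 235 at 0 h to 82 at 24 h and 112 at 48 h. Cebpb, a transcription factor of inflammatory macrophages, was in 5 lists at 2.15 to 3.60 (chr2:167532025-167532297), and the tetraspanin Cd9 in 5 at 2.03 to 3.45. Itgb1 was also in 5. Alternative activation and repair had 9 of 12 genes, among them Sirpa, the inhibitory receptor that binds CD47. Sirpa was in 5 lists at 3.27 to 4.06 (chr2:129472698-129473054). Spp1 (osteopontin) was in 4 at 1.84 to 2.62. Both were missing from 24 h list 2.

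Few genes of the IFN-γ response had a peak of any place, so their share with a 3′ UTR region rests on few genes. Of 22 genes of the receptor and JAK-STAT pathway, 4 had any peak and 2 had one in the 3′ UTR. Ifngr2, the signalling chain of the IFN-γ receptor, was in 5 lists with folds of 4.17 and 5.41 at 0 h, 4.32 in 24 h list 2, and 3.32 and 4.81 at 48 h (chr16:91360499-91360868). It was thus present before IFN-γ and at 48 h. The kinase Jak2 was in 0 h list 1 and both 48 h lists at 3.15, 1.97 and 4.00. Of 35 interferon-induced effectors, 8 had any peak and 3 a 3′ UTR region, namely Cd274, Slfn5 and Gbp3. Cd274 encodes the checkpoint ligand PD-L1. Its region (chr19:29364089-29364656) had 3.77 and 2.47 at 0 h, 2.54 in 24 h list 1 and 2.52 in 48 h list 1.

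Of 10 genes of NF-κB and inflammatory cytokines with any peak, 5 had a 3′ UTR region. Nfkbia, the NF-κB inhibitor IκBα, was in 5 lists at 2.34 to 4.67 (chr12:55536243-55536756). Tnf was in 0 h list 2 at 1.90 and 24 h list 1 at 3.60, so the lists of each time disagreed. Antigen presentation had 5 of 9 genes, with the lysosomal protease Lgmn in 4 lists at 4.07 to 5.03 (chr12:102360442-102360754).

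Among the lower shares were those of translation, the nucleolus and RNA modification, beside interferon-induced effectors (3 of 8). These shares rest on few genes. Translation factors had 7 of 18 genes with a 3′ UTR region, cytosolic ribosomal proteins 6 of 13, nucleolus and ribosome assembly 4 of 9, and RNA modification 3 of 8. Of the translation factors, Eif4a2 was in all 6 lists at 1.70 to 3.46 (chr16:22932046-22932613). Eif5a was in 5 at 1.37 to 2.1. The RNA modification genes were Ythdf2 and Ythdf1, readers of N6-methyladenosine, and Alyref. Nat10 itself had no 3′ UTR region. Lysosome and phagosome genes had 10 of 16, led by Atp6ap2 in all 6 lists at 2.03 to 3.23. Chaperones also had 10 of 16, ubiquitin and proteasome 8 of 13, oxidative phosphorylation 8 of 12 and nuclear transport 6 of 8.

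**Figure D5:**
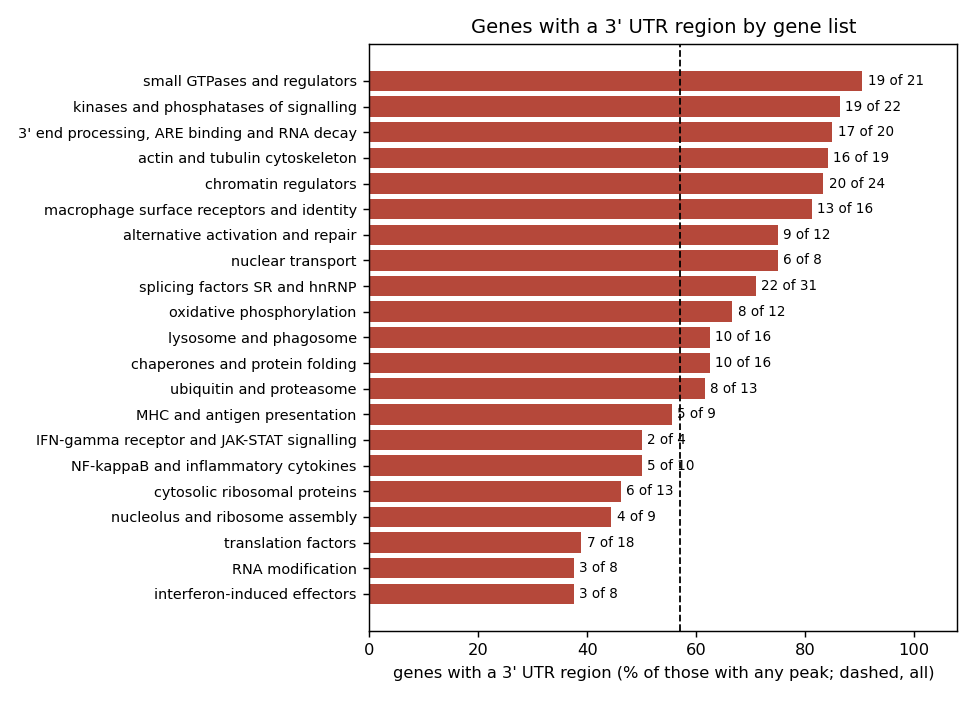
Bars give, for each gene list with at least 4 genes that had any peak, the percentage of those genes with a 3′ UTR region, and the labels give the counts. Small GTPases stand highest (19 of 21) and interferon-induced effectors lowest with RNA modification (3 of 8 each), around the dashed line at 57.0% for all genes with a peak.

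A peak list is a poor check of cell identity, since unmodified mRNA gives none. Of 9 macrophage markers, Itgam had a 3′ UTR region in 2 lists and Lyz2 in 1, and the other 7 had no peak. None of the 5 markers each of B cells, T and NK cells, neutrophils, mast cells and erythroid cells had a peak. Of 7 mesothelial and fibroblast markers, Wt1 had a region in 48 h list 2 at a fold of 5.95 and the others none.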

How the data were processed

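ac4C pull-down and total RNA of mouse peritoneal macrophages were sequenced. The 6 lists used were made by the authors with 1 row per summit and overlapping gene. BWA 0.7.12, MACS2 2.1.0 and build GRCm39 are named in the submitters' processing notes, without role or settings; BWA does not align across splice junctions. Fold enrichment is a ratio the authors deposited, of pull-down over caller background; its p and q come from the authors as −log10 values. The smallest −log10 p of a list was 2.30 to 2.33. Folds were compared only within a list. Coordinates are those of the tables, where a start may count from 0 or 1.

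A region took its best summit's values, and a merged region those of its strongest region in each list. Its centre, as annotated by the authors, gave its place, 3′ UTR before 5′ UTR, last exon, other exon, intron and outside. Length is end minus start. Patterns of merged regions need presence in both lists of a time and absence from both of another; a sustained loss is absent from all 4 later lists, and a sustained gain is the reverse. Ranks used each region's percentile of −log10 p within a list, averaged over its lists. Named were the 10 highest in all lists, of sustained losses and of sustained gains (1 existed), the 4 highest of each single-time pattern, the 5 longest, the 5 genes with most regions and the 3 members of each gene list held by most lists; others were named from counts of few genes, after their values were seen, and a few items that the rule names are not reported here. The members and the 28 gene lists were chosen with earlier results of these data known. RefSeq (GRCm38.p6 table) gave gene types and synonyms, and 99.1% of the genes matched.

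Tests were two-sided and exact: permutation over lists (smallest p 0.333 for 2 against 2), Jonckheere-Terpstra trend and sign-flips over 6 lists, with Benjamini-Hochberg adjustment. Library depth is unknown; relative input coverage came from a Poisson model of the deposited fold and p, which matched 99.7% to 100.0% of summits within 0.005 of −log10 p, with a median of 45 to 51 fragments. For matched coverage, p was recomputed at the shallowest input and kept at 0.005 or less. The merging, patterns, tests and depth recovery were tested on simulated data. Python 3.11.15, pandas 2.3.3, NumPy 2.4.6 and SciPy 1.17.1 were used.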

Additional observations from a re-analysis of the deposited data

How the results depend on the processing

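No paired analysis was possible because the lists do not say which sample they come from, so their numbers pair nothing. The alternatives were a q of 0.05 or 1e-05, a fold of 4, equal list length, matched input coverage, regions with all annotations in the 3′ UTR, overlap over 0.5 of the shorter region, absence of any region, and each list left out; only the length above the shortest region was added after the data were seen. No test of time passed the adjusted threshold under any of them, and with so few lists none could have. With 5 lists the smallest sign-flip p is 0.0625, so leaving out a list ended every within-list call by construction. With 6 lists the smallest p passes the adjustment over 15 comparisons only where enough of them share it. The length differences at a fold of 4 kept that smallest p and lost their call by the adjustment alone. So did the −log10 p differences from last and other exons at a q of 0.05. The causes of the other changes below were not tested.

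The counts of merged regions, genes, regions in every list and sustained losses were 596, 543, 13 and 50 at a q of 0.05, 238, 226, 6 and 32 at a q of 1e-05, and 347, 342, 1 and 14 at a fold of 4, where no sustained gain was left (0). Sustained losses were 37 at equal list length and 50 at matched coverage, and ranged from 87 of 229 to 345 of 637 with a list left out. Without a 0 h list the rule needs presence in only 1 list. These shares ran from 38.0% to 54.2%, against 36.8% to 52.9% for regions of all places. Sustained gains were 2 counting absence of any region, and 2 to 11 with a list left out. The 48 h minus 0 h share turned to 0.40 points at a q of 0.05, 2.76 at a fold of 4, and ranged from -6.63 to 6.49 without single lists. The 48 h to 24 h log2 ratio of covered bases turned to -0.020 at a q of 1e-05 and ranged from -0.052 to 0.35 without single lists; that of genes at 48 h to 0 h was 0.028 at equal length, and that of median length at 24 h to 0 h 0.016 at a fold of 4.

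Against other, last-exon and other-exon regions, the length differences that lost their call were 18.2, 9.75 and 25.5 bases at a q of 0.05, 12.2, 9.42 and 11.9 at a q of 1e-05, and 33.6, 27.3 and 44.3 at a fold of 4; without single lists they ranged from 38.2 to 42.1, 13.9 to 17.3 and 57.4 to 61.8. The fold difference from other regions was -0.24 at a q of 0.05, 0.031 at a q of 1e-05 and -0.17 at a fold of 4, and -0.20 to -0.15 without single lists. From last-exon regions it was 0.14 and 0.23 at the q limits, and from other exons -0.31 at equal length and -0.15 at matched coverage, where it passed. The −log10 p difference from other regions was -1.49 at a q of 1e-05 and -0.033 at equal length. That from last exons was -1.63, -2.82 and -0.85, and that from other exons 1.41, 0.47 and 1.33, at a q of 0.05, a q of 1e-05 and a fold of 4. Without single lists they ranged from -1.42 to -1.14 and from 0.99 to 1.12. Summits per region differed from other regions by -0.037 at a q of 1e-05 and from last exons by 0.042 at a fold of 4, where the share at a q of 0.05 was 1.53 points higher than in last exons. The recurrence difference was -1.64 points at a q of 1e-05.

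The number of lists with a 3′ UTR region was the same for 84 of 99 named genes at matched coverage and at equal length. The unknown library depth limits every absence. The lowest input value was shared by 30 and 48 summits in the 0 h lists. It was shared by 41 to 54 in the later lists other than 48 h list 2, which had 27.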

Other observations

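The deposited annotation terms were compared between genes with a 3′ UTR region and genes with peaks elsewhere alone. Genes without any term were left out, nearly all of them from the second set. Plasma membrane was given for 24.6% of 1180 genes with a 3′ UTR region and for 17.8% of 641 genes with peaks elsewhere, and cell adhesion for 2.46% and 0.62%. Focal adhesion was given for 2.63% and 0.94%, and endosome for 6.95% and 4.84%. The order was reversed for translation, at 1.78% and 4.84%, for splicing of mRNA, at 1.36% and 3.59%, for RNA binding, at 9.15% and 12.5%, and for mitochondrion, at 9.83% and 14.7%. Lysosome was given for 2.97% and 4.37%. The shares lay closer for nucleus (46.3% and 48.5%), cytosol (32.0% and 33.4%), Golgi apparatus (9.32% and 8.89%) and immune system process (3.05% and 3.59%). These terms were chosen after the data were seen and were not tested, and 3′ UTR length was not available for the comparison.

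The merged 3′ UTR regions lay on every autosome and the X chromosome. Chromosome 11 held 119 of the 1364, chromosome 1 held 109 and the X chromosome 40. Gene bounds were found in the tables for 34.8% of the genes, so a check of where in the 3′ UTR the regions lie was void.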
